A study of Caenorhabditis elegans with 32 samples.

Results

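Acetylation of lysine 27 on histone H3 (H3K27ac) was compared between heat-shocked (HS) and unstressed wild-type (WT) early embryos of Caenorhabditis elegans, over the whole nuclear genome. The comparison used 12 of the 32 libraries of the series, chosen by their labels. They were 3 H3K27ac immunoprecipitations (IP) and 3 inputs, which are chromatin sequenced without immunoprecipitation, from HS embryos, and the same numbers from WT embryos at 20 °C. Both groups were N2 (Bristol) worms without a mutation or a transgene, and their chromatin came from embryos younger than the bean stage. HS cultures had been at 37 °C for 1 h according to the labels. The study's own text names that duration in one place and a shorter one in another. Of the genome's 200579 windows of 500 bp, 196112 nuclear windows had enough input reads to be tested.

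The other libraries served as a common ground for the comparison. H3K27ac had also been measured at 20 °C in embryos with the met-2(n4256) allele (met-2Δ, a deletion) and the met-2(gw1660) allele (met-2-CD, a catalytically deficient MET-2), with 3 IP and 3 input libraries each. H3K9me2 had been measured in WT embryos with 2 IP and 2 input libraries at 37 °C and the same numbers at 20 °C. The study describes the H3K27ac replicates as biological, and p-values measure the spread between these samples.

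H3K27ac is laid down by acetyltransferases of the CBP/p300 family and taken off by histone deacetylases. It marks the nucleosomes beside active promoters and enhancers, and acetylated lysines are bound by bromodomain proteins that help transcription. Dimethylation of H3K9 stands at the other end, as a mark of silent chromatin that the SETDB1-like enzyme MET-2 lays down in worm embryos, mostly on the repeat-rich arms of the autosomes. The heat shock response is driven by the transcription factor HSF-1, which turns on chaperone genes, while many other genes are turned down during the stress.

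The files give, for each library, how many uniquely placed reads fell in a window. HS libraries held between 26876674 and 28896446 IP reads and between 22093746 and 28329818 input reads. WT libraries held fewer, between 19327992 and 26141674 IP reads and between 16899918 and 23411210 input reads. Counts were scaled to a common library size of 27343814.5 reads, and a pseudocount of 2 was added to IP and input before their log2 ratio, the enrichment, was taken. Windows whose enrichment reached 1 in 2 or more of the 12 H3K27ac pairs of IP and input were joined with their neighbors into 5216 H3K27ac regions, with a median width of 1500 bp. Log IP counts of replicates had a Pearson r across windows of 0.919 to 0.949 within HS, 0.861 to 0.897 within WT and 0.803 to 0.897 between HS and WT. Among the mutant libraries, met-2-CD replicate 3 stood apart: the regions took 31.6% of its IP reads, and 19.4% to 25.8% of those of the other 5. Regions are named by their positions in the genome build ce10, since gene annotation of that build was not used here.

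HS embryos had more of their H3K27ac reads in the regions and fewer between them. The regions took 30.7%, 34.3% and 30.4% of the IP reads in the 3 HS replicates, against 27.6%, 25.2% and 23.5% in the 3 WT replicates. Every HS replicate was thus above every WT replicate, and the means differed by 6.36 percentage points (31.8% ± 2.15 in HS and 25.5% ± 2.06 in WT, SD, n = 3 each). A two-sided exact permutation test gave p = 0.1, the smallest p that 3 replicates against 3 allow. In the inputs the same regions took 11.01% ± 0.352 of the reads in HS and 10.8% ± 0.0134 in WT (SD, n = 3 each), and the groups overlapped (exact permutation p = 0.4). Because HS libraries helped to choose these regions, the share was also taken over 4308 regions found in the 6 met-2 mutant pairs alone. There it was 23.0%, 25.6% and 22.8% in HS and 21.5%, 19.4% and 18.1% in WT, again without overlap (exact permutation p = 0.1).

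Between the regions the mark went the other way. In 156798 background windows, at least 1 kb from any region, HS replicates held 97.9, 91.7 and 98.3 scaled IP reads per window, against 105, 110 and 112 in WT replicates. All 3 HS replicates lay below all 3 WT replicates, with a mean difference of -13.04 reads or -11.96% (exact permutation p = 0.1). An unheated library reached the HS level in both values: met-2-CD replicate 3 had 98.05 scaled reads per background window and 31.6% of its reads in the regions, within the ranges of the HS replicates, while the other 5 mutant libraries had 107.9 to 119.2 reads per background window. The input level of these windows was also lower in every HS replicate, but by only -2.08% (133 ± 1.80 reads per window in HS and 136 ± 0.786 in WT, SD, n = 3 each, exact permutation p = 0.1). Mitochondrial reads counted in the totals used for scaling and took more of the HS input (means of 3.35% in HS and 1.89% in WT). Their part in this input difference was not tested. The log2 ratio of IP to input averaged -0.55 ± 0.093 in HS and -0.35 ± 0.049 in WT (SD, n = 3 each). In a ChIP experiment without a spike-in, a fixed number of reads is shared out over the genome. Fewer reads between the regions and more reads within them therefore cannot be told apart as separate changes.

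Tested one by one, 14659 windows (7.47%) differed between HS and WT by edgeR's quasi-likelihood test at a Benjamini-Hochberg adjusted p below 0.01. H3K27ac was higher in HS in 8228 of them (4.2%) and lower in 6431 (3.28%). These are called gained and lost windows in what follows. The typical gained window held 258 scaled IP reads in HS and 144.5 in WT, as medians over the gained windows, and their median log2 fold change (log2FC) was 0.82. The typical lost window held 68.2 reads in HS and 124 in WT, with a median log2FC of -0.85. Gained windows thus lay above the median of all tested windows, which was 97.3 reads in HS and 112.5 in WT, while lost windows had been near it at 20 °C. All 3 HS replicates lay above all 3 WT replicates in 7957 of the gained windows and in 11.9% of all windows, and below them in 6144 of the lost windows and in 23.2% of all windows.

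How the calls split into gains and losses depended on the scaling. With library totals the median log2FC over all windows was -0.18, and 56.1% of the calls were gains. TMM normalization moved that median to -0.03 and the calls to 11918 gained and 2443 lost, so that 83.0% were gains. Scaling by the reads outside the regions gave 11315 gained and 2391 lost windows, or 82.6% gains. Single libraries mattered too: without HS replicate 2 there were 5222 gained and 1710 lost windows, without WT replicate 3 there were 5040 and 2485, and without WT replicate 2 there were 5830 and 3176. Gains outnumbered losses in each of these fits. At an adjusted p below 0.05, however, losses outnumbered gains, with 14447 gained and 21974 lost.

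Few windows differed in input. Of the 196112 windows, 23 (0.0117%) differed in input, all of them lower in HS, and 13911 had an unadjusted p below 0.05 by the same edgeR test. Among the gained windows 1 was called in input and among the lost windows 9 were. When IP and input were put into a single model, so that the change in IP was tested relative to the change in input, 2652 windows were gained and 1053 lost.

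Over whole regions most calls were gains. Of the 5216 regions, 1124 (21.5%) gained and 29 (0.556%) lost H3K27ac in HS (edgeR, adjusted p below 0.01). Enrichment in HS pairs alone was enough for a region to enter this set, so these shares depend on how the set was chosen. Of the 4308 regions of the mutant pairs, which neither HS nor WT libraries chose, 513 (11.9%) were called in the same test, 501 as gained and 12 (0.279%) as lost. Over the 5216 regions the median log2FC was 0.76 among the gained regions, with 231 of them above 1, and 0.31 over all regions, of which 81.4% had a log2FC above 0. All 3 HS replicates lay above all 3 WT replicates in 1114 of the gained regions, against 51.5% of all regions. They lay below in each of the 29 lost regions, against 4.81% of all. No gained or lost region was called in input, where 0 of 5216 regions passed by edgeR and 456 had an unadjusted p below 0.05. This picture, too, rests on the scaling: TMM over the regions, which sets their median log2FC near 0 (-0.01), gave 873 gained and 844 lost regions. Without WT replicate 3, WT replicate 2 or HS replicate 2 the gained regions numbered 534, 616 and 568, and without met-2-CD replicate 3 they numbered 1777. With only HS and WT libraries, so that no mutant entered the estimate of the spread, 1945 regions were gained and 68 lost.

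Among the gained regions, 492 (43.8%) held no window that was enriched in at least 2 of the 3 WT pairs, as did 31.6% of all regions. They were gained more often, at 29.9%, than the regions with such a window, at 17.7%. This is a description, because the enrichment in WT takes part in both numbers. Gains were most frequent in regions on chromosomes III (27.6%), I (25.6%) and IV (24.7%), lower on II (21.6%) and V (17.4%), and least frequent on X (8.87%). The lost regions were few everywhere, from 1 on chromosome I to 7 each on II, IV and V.

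The named gains describe the regions with the lowest p, and that p is not independent of their choice: in 8 of the 9, no window was enriched in at least 2 WT pairs or in at least 2 mutant pairs, so that they entered the set through the HS pairs. The lowest p belonged to a 4500 bp region on chromosome III, from 12994048 to 12998547. It held 4521, 4487 and 3916 scaled IP reads in HS, against 1085, 1016 and 1164 in WT. Every HS replicate was more than 3 times the highest WT replicate, and the log2FC was 1.98 (SE 0.20, edgeR adjusted p = 2.8e-20). Its input held 1339 ± 23.8 reads in HS and 1160 ± 86.1 in WT (SD, n = 3 each, edgeR adjusted p = 0.29). All 9 of its windows were enriched in HS and 0 in WT, where the region was close to its input. The gain went past both edges of the region: the next window to the left held 319, 252 and 245 reads in HS and 81.9, 67.9 and 131 in WT, and the next to the right held 346, 332 and 246 in HS and 99.8, 126 and 126 in WT. Both neighbors were called (log2FC 1.52 and 1.39, edgeR adjusted p = 2.1e-12 and 1.1e-11). In all, 18 adjacent windows from 12992048 to 13001047 were gained.

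The next 2 regions in rank both lay on chromosome V. One of them, from 7923942 to 7926941, held 2306, 1683 and 1943 scaled IP reads in HS and 644, 563 and 684 in WT (log2FC 1.65, SE 0.19, edgeR adjusted p = 2.9e-15). The other, from 7913942 to 7916441, held 1613, 1374 and 1294 reads in HS and 492, 376 and 521 in WT (log2FC 1.62, SE 0.18, edgeR adjusted p = 2.9e-15). Neither had an enriched window in WT, and in both the lowest HS replicate was more than 2 times the highest WT replicate. The nearest tested windows on either side of both regions were also gained, with log2FC between 1.5 and 1.88, although 3 of these 4 windows were separated from the region by windows that were not tested.

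Chromosome IV had 3 gained regions of this rank. The one from 16585773 to 16587272 held 468, 462 and 344 scaled IP reads in HS and 120, 92.0 and 157 in WT (log2FC 1.77, SE 0.20). The one from 8466308 to 8467307 held 369, 396 and 316 in HS and 128, 84.9 and 92.1 in WT (log2FC 1.82, SE 0.21). In the one from 13460787 to 13461786, HS replicate 2 stood above the others, with 386, 633 and 324 reads in HS and 136, 105 and 159 in WT (log2FC 1.74, SE 0.20). All 3 had an edgeR adjusted p of at most 3.3e-15 and no overlap between the groups.

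On chromosome II the leading gain, from 12300961 to 12302460, lay where H3K9me2 was high at 20 °C. All 3 of its windows belonged to an H3K9me2 domain at 20 °C, with a mean log2 H3K9me2 enrichment of 2.78 and 1.97 in the 2 replicates at 20 °C. H3K27ac reached 925, 1135 and 796 scaled reads in HS, against 315, 337 and 286 in WT (log2FC 1.61, SE 0.19, edgeR adjusted p = 3.3e-15). The same region was higher in met-2Δ than in WT at 20 °C (log2FC 0.78, SE 0.18, edgeR adjusted p = 0.0032) while in met-2-CD its log2FC was 0.29 (SE 0.19, edgeR adjusted p = 1). On X the leading gain, from 443736 to 444735, was the weakest of the chromosomes' leading gains. It held 265, 376 and 270 reads in HS and 150, 67.9 and 100 in WT (log2FC 1.51, SE 0.21, edgeR adjusted p = 9.3e-11). The leading gain of chromosome I had 798, 700 and 685 reads in HS and 206, 214 and 291 in WT (log2FC 1.61). All 9 of these named gained regions kept their call in each of the 15 other fits, with log2FC from 1.19 upward.

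**Figure D1:**
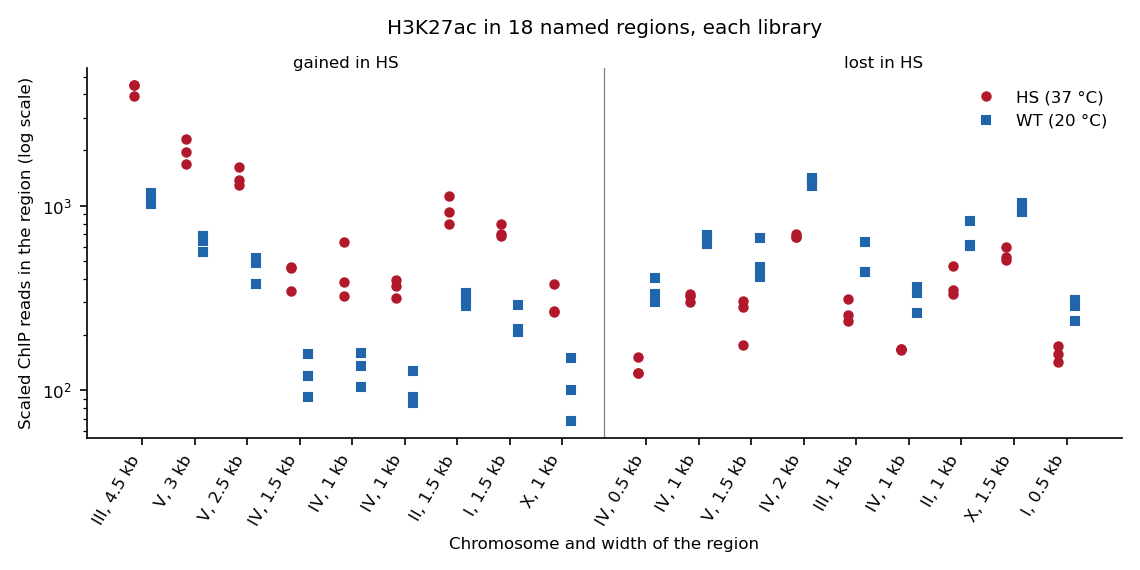
Scaled H3K27ac IP reads (log axis) in each of 18 regions, named on the x axis by chromosome and width, with 3 HS libraries (red circles) to the left of 3 WT libraries (blue squares). The HS libraries lie above all WT libraries in the 9 gained regions and below them in the 9 lost regions, as the rule for naming regions required.

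Of the 9 lost regions that were named, 3 lay close together on chromosome IV, inside the longest run of lost windows, which spanned 21 windows from 14035784 to 14046283. Over that run, HS replicates held 170, 157 and 176 scaled IP reads per window, against 410, 328 and 327 in WT. Every HS replicate was near its input (160, 164 and 157 reads per window), while WT was more than 1.5 times its own (167, 162 and 165.7), and 0 of the 21 windows were enriched in HS and 13 in WT. The lost region with the lowest p, from 14040284 to 14040783, held 124, 124 and 152 reads in HS and 408, 331 and 300 in WT (log2FC -1.38, SE 0.20, edgeR adjusted p = 3.6e-10). Its neighbors from 14044284 to 14045283 and from 14041284 to 14043283 had log2FC of -1.05 and -0.98.

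The other named losses lay elsewhere. On chromosome V, from 9087937 to 9089436, HS replicates held 284, 176 and 303 scaled IP reads, against 664, 467 and 409 in WT (log2FC -1.01, SE 0.18, edgeR adjusted p = 1.2e-06). Of its 3 windows 0 were enriched in HS and all 3 in WT. On chromosome III, from 2179094 to 2180093, they held 313, 238 and 256 in HS and 439, 637 and 437 in WT (log2FC -0.90, SE 0.18, edgeR adjusted p = 1.8e-05), close to a run of 8 lost windows from 2174594 to 2178593 with a median log2FC of -0.86. Among the 29 lost regions, 6 held no window enriched in at least 2 WT pairs, including this one and the named loss on chromosome I. The region on chromosome II from 11758963 to 11759962 was the only named loss with windows enriched in at least 2 HS pairs. It held 474, 348 and 334 reads in HS and 831, 615 and 607 in WT (log2FC -0.83, SE 0.18). In met-2Δ against WT its log2FC was -0.70 (SE 0.18, edgeR adjusted p = 0.0103), which did not pass. The leading losses on X, from 12230185 to 12231684, and on chromosome I had log2FC of -0.82 and -0.81, and the last named loss, on chromosome IV from 15635277 to 15636276, had -0.94. With scaling by the reads outside the regions, the losses on II, X and I no longer passed (edgeR adjusted p = 0.0166, 0.0233 and 0.0228), and relative to input the last loss on IV did not (edgeR adjusted p = 0.0202). The loss on II also did not pass with DESeq2 at library totals (DESeq2 adjusted p = 0.0117).

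Gains came in stretches and losses mostly as single windows. The 8228 gained windows formed 3643 runs, 49.7% of which were a single window, and 57.6% of the gained windows lay in runs of at least 3. The 6431 lost windows formed 5131 runs, 81.4% of them single, with 11.9% of the windows in runs of at least 3. There were 58 gained runs of at least 10 windows and 1 lost run of that length. The longest gained run covered 22 windows on chromosome V, from 16536905 to 16547904, and held 242, 267 and 222 scaled IP reads per window in HS, against 125, 114 and 121 in WT. The next covered 20 windows on chromosome IV, from 15039780 to 15049779, with 368, 528 and 326 reads per window in HS and 150.3, 166.2 and 153 in WT. Of its windows 17 were enriched in HS and 1 in WT, and 13 belonged to an H3K9me2 domain. Of the 58 long gained runs, 49 lay in the outer 2 of 3 equal parts of a chromosome. Of all 8228 gained windows, 6157 lay in these outer parts of the autosomes, and 262 and 218 in the left and right parts of X. No window enriched in WT was held by 33 of the long gained runs. Of the 733 windows in these runs 55 were enriched in WT, against 11882 of all 196112 tested windows.

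Widening of existing regions was measured around the 4308 regions of the met-2 mutant pairs, since their edges were set by neither HS nor WT libraries. The mutants were kept at 20 °C, so these edges, like those of WT regions, come from unheated embryos. In the first window outside an edge, HS replicates held 262, 285 and 265 scaled IP reads, against 226, 217 and 206 in WT, a difference of 24.9%. Inside the regions the difference was 21.1%, where HS replicates held 464, 516 and 460 reads and WT replicates 433, 392 and 364. In the second window the HS mean was 15.0% above the WT mean, in the third 7.41%, and in windows 4 and 5 together 1.63%, where the groups overlapped (exact permutation p = 0.2). All the closer windows separated every HS replicate from every WT replicate (exact permutation p = 0.1 for each). More than 20 windows away, HS was below WT, with 88.8, 81.4 and 88.7 reads against 96.3, 101 and 105. Input showed no such step: over the first 5 windows it averaged 140 ± 1.99 reads in HS and 141 ± 0.412 in WT (SD, n = 3 each, exact permutation p = 0.3).

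**Figure D2:**
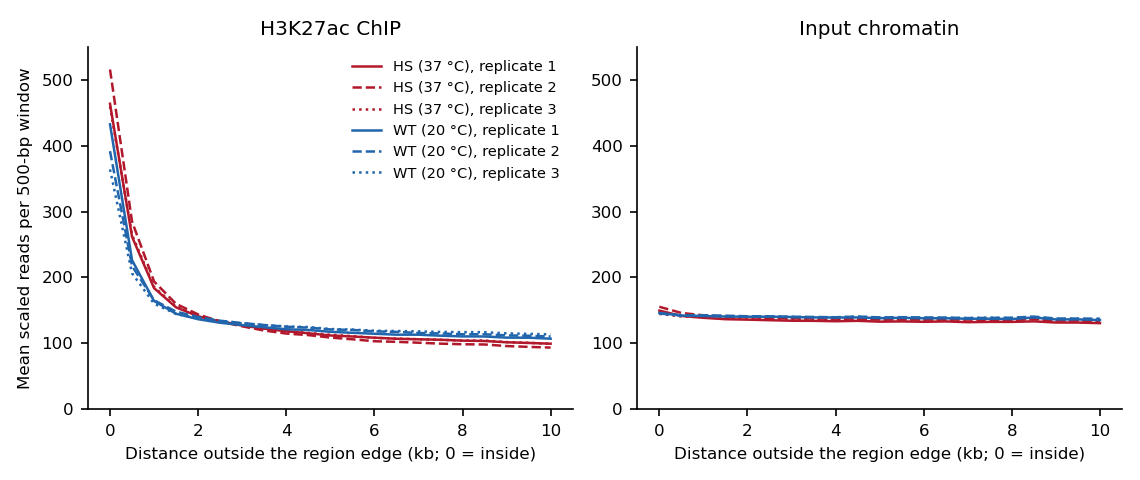
Mean scaled reads per 500-bp window by distance of the window's outer edge from the edge of a region of the met-2 mutant pairs (kb, 0 is the inside of regions), for 3 HS (red) and 3 WT (blue) libraries of H3K27ac IP (left) and input (right). HS IP libraries lie above WT inside regions and in the first 3 windows, and below WT far away, while the input lines stay close together.

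The flanks were also higher relative to the inside of the regions when each library served as its own scale. For each library, the reads over its level more than 20 windows away were taken, and the excess in the flank was divided by the excess inside the regions, a ratio that no scaling of the library can change. In the first window it was 46.1%, 46.8% and 47.5% in HS, against 38.6%, 40.1% and 39.2% in WT, with the lowest HS value well above the highest WT value. Over the first 5 windows it was 24.1%, 24.6% and 24.8% in HS and 20.1%, 21.7% and 20.97% in WT, a difference of 3.62 percentage points (exact permutation p = 0.1). The difference was 4.06 points around regions of the WT pairs, whose edges lie where WT is low. Around regions of the HS pairs, which end where HS is low, it was 0.757 points and the groups overlapped (exact permutation p = 0.3). The size of the difference thus depended on whose edges were used, and the mutant edges came from embryos at 20 °C. The choice of edges and a widening in HS cannot be fully told apart here.

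Calls of single windows followed the same pattern. With all libraries, 9.31% of the windows inside the mutant-pair regions were gained, while 18.7% of the first windows outside were, the highest share of any distance. The median log2FC of these 2 classes were close, at 0.253 and 0.281. The share then fell to 12.4% in the second window, 8.49% in the third, 5.72% in windows 4 and 5, and 1.53% more than 20 windows away, against 4.2% of all windows. Losses went the other way, with 0.494% inside, 4.17% at 11 to 20 windows and 4.11% farther out. The balance far from regions turned with the scaling: more than 5 windows away, 2.14% of windows were gained and 3.99% lost with library totals, 3.61% and 1.56% with TMM, and 3.64% and 1.55% with background scaling. The first window outside had a higher share of gains than the inside in each of the fits in which the shares were recomputed. For the first 5 windows together the order depended on 1 library: with all libraries 10.7% of them were gained, above the share inside, while without met-2-CD replicate 3 it was 11.8%, below the 2243 gained of 13571 windows inside. Around regions of the HS pairs, whose inside HS libraries chose, 20.9% of the windows inside and 17.2% of the first windows outside were gained. Gained windows were most frequent where H3K27ac at 20 °C was moderate. By the mean enrichment of the mutant pairs, they made up 14% of windows between 0.5 and 1, 10.4% between 1 and 1.5, 3.13% between 1.5 and 2, and 0 of 536 windows over 2. Without met-2-CD replicate 3 the shares between 1 and 1.5 and between 1.5 and 2 were 19.3% and 10.3%. With only HS and WT libraries they were 19.1% and 12.5%, so the position of the peak depends on the mutant libraries in the fit.

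**Figure D3:**
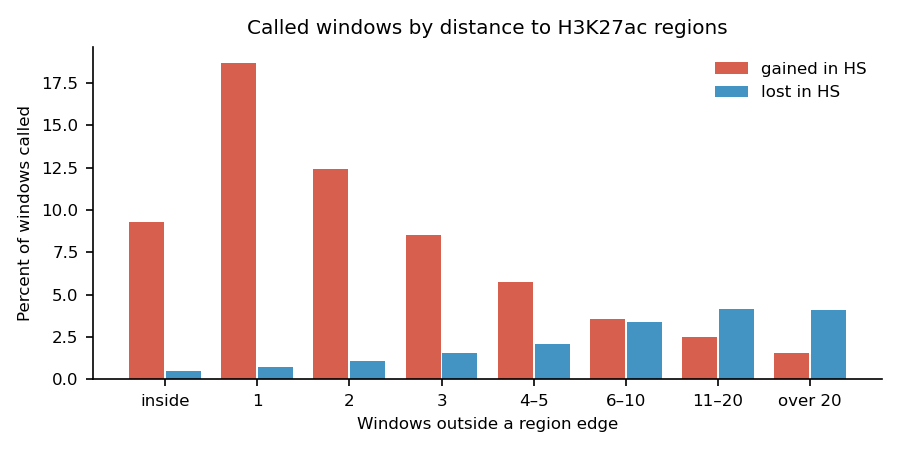
Percent of tested windows called gained (red) or lost (blue) in HS, by how many 500-bp windows they lie outside a region of the met-2 mutant pairs. Gains peak at 18.7% in the first window outside and fall to 1.53% beyond 20 windows, while losses climb to about 4%.

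Enriched windows were also counted within each replicate. HS pairs of IP and input had 17106, 19361 and 16917 enriched windows, against 14168, 12682 and 10702 in WT pairs. Every HS pair was above every WT pair (17795 ± 1360 in HS and 12517 ± 1739 in WT, SD, n = 3 each, exact permutation p = 0.1). The number of separate runs differed less, with 4865, 5617 and 4589 in HS and 4694, 4645 and 3939 in WT, and overlapped between groups (exact permutation p = 0.3). The runs were wider in every HS pair, with a mean of 1758, 1723 and 1843 bp in HS and 1509, 1365 and 1359 bp in WT (exact permutation p = 0.1). After all 12 libraries had been thinned to 16899918 reads, the widths were 1674, 1676 and 1759 bp in HS and 1492, 1345 and 1303 bp in WT, again without overlap. Thinning evens the depth but not the level of enrichment, on which the width at a fixed cutoff also depends. The thinned libraries had 5185, 5813 and 4880 runs in HS and 4746, 4752 and 4183 in WT, which no longer overlapped (exact permutation p = 0.1).

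When windows enriched in at least 2 of 3 pairs were taken, HS had 17011 and WT 11882, with 10836 in both. Of the 6175 windows enriched only in HS, 4251 (68.8%) lay in an HS run that also held WT windows, as extensions of a region already present at 20 °C, and 1924 lay in 1100 new runs. Of the 1046 windows enriched only in WT, 578 lay in a WT run that also held HS windows. Among 3152 HS runs that matched exactly 1 WT run, 1920 were wider in HS, 900 had equal width and 332 were narrower. Fusion was more common than splitting, with 222 HS runs that joined at least 2 WT runs and 36 WT runs that held at least 2 HS runs. These counts describe the enriched sets and carry no test of their own. Runs were cut at a fixed enrichment, so a higher enrichment over a whole region also gives wider and fused runs. The counts cannot tell that apart from spreading.

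The 6 chromosomes did not share the change equally. Chromosome III took 16.7%, 17.2% and 16.6% of the nuclear IP reads in HS, against 15.7%, 15.7% and 15.4% in WT. Chromosome I took 18.3%, 18.7% and 18.2% in HS and 17.3%, 17.2% and 16.97% in WT. Both took more reads in every HS replicate than in any WT replicate. The X chromosome took fewer, with 15.5%, 15.5% and 15.8% in HS and 17.4%, 16.7% and 17.1% in WT, and so did chromosome V, with 16.7%, 16.01% and 16.7% in HS and 17.2%, 17.6% and 17.9% in WT. Chromosome II differed by only 0.21 percentage points without overlap, and IV overlapped (exact permutation p = 0.3). Of the 18 shares tested, for the chromosomes and for the arms and the center of each, 14 had the smallest possible exact p of 0.1, or 0.13 after Benjamini-Hochberg adjustment. In input, X, I and III had smaller steps in the same direction, with 17.8% in HS and 17.99% in WT for X, 15.8% and 15.69% for I, and 14.12% and 14.04% for III (exact permutation p = 0.1 for each). Chromosome V had no such step in input (19.82% in HS and 19.82% in WT, exact permutation p = 1), and IV was slightly higher in HS input (17.19% in HS and 17.17% in WT, exact permutation p = 0.1).

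Each chromosome was cut into 3 equal parts, of which the outer 2 are called arms. The share of IP reads was higher in HS by 10.5% on the arms of I, where the center overlapped (1.51%), and by 9.21% on the arms and 5.81% in the center of III. It differed by -6.59% on the arms and -12.3% in the center of X, and by nearly the same on the arms (-5.84%) and in the center (-6.68%) of V. Except for the center of I, the HS and WT replicates did not overlap in these parts. Gained windows made up 5.75% of the autosome arms, 2.80% of the autosome centers and 1.59% of X. Lost windows made up 2.51%, 3.82% and 4.79% of the same parts. The right arm of III had the highest share of gains, 9.55%, and the center of X the lowest, 0.639%, together with the highest share of losses, 6.75%. Under TMM the gained shares of arms, centers and X were 8.21%, 4.15% and 2.54%, and the lost shares 0.995%, 1.35% and 1.85%. Both kept their order, but gains then outnumbered losses in the autosome centers (2248 gained, 732 lost) and on X (887 gained, 646 lost), as they did with background scaling (2037 and 706 in the centers, 832 and 630 on X).

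**Figure D4:**
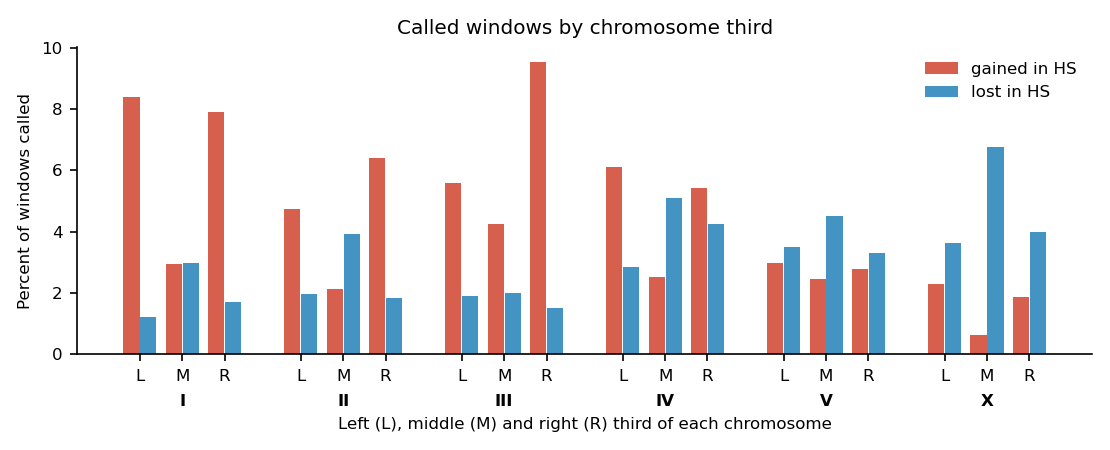
Percent of tested windows called gained (red) or lost (blue) in HS in the left, middle and right part of each chromosome. Gains exceed losses in both arms of chromosomes I to IV, and losses exceed gains on all parts of V and X with library totals, while on X as a whole gains exceed losses under TMM (887 against 646) and background scaling (832 against 630).

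The background shifted in the same direction on X and on the arms of chromosomes I and III. Relative to the mean of all background windows of the same library, those on X stood at 0.939, 0.952 and 0.954 in HS and 1.02, 0.991 and 1.00 in WT. Those on the arms of chromosome I stood at 1.13, 1.21 and 1.12 in HS and 1.04, 1.05 and 1.04 in WT, and those on the arms of III at 1.11, 1.19 and 1.09 in HS and 1.03, 1.04 and 1.02 in WT. The groups were apart in each (exact permutation p = 0.1, 0.13 after Benjamini-Hochberg adjustment over 18 parts). HS replicate 2 was the highest of the HS replicates on both pairs of arms. In the center of chromosome I the groups overlapped, with means of 1.19 in HS and 1.19 in WT (exact permutation p = 0.9). Other parts differed from the shares of IP reads. On the arms of V and in the center of III the groups overlapped in background (exact permutation p = 0.2 for each). Chromosome IV as a whole and the center of II, which overlapped in IP share, were lower in every HS replicate in background (exact permutation p = 0.1 for each).

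Gains were concentrated where H3K9me2 had been high at 20 °C. H3K9me2 domains, runs of at least 3 windows with a mean log2 enrichment of at least 1 over input in the 2 replicates at 20 °C, held 18531 of the tested windows. In them 12.9% of the windows gained H3K27ac and 0.351% lost it, while outside them 3.29% gained and 3.58% lost it. Outside domains the balance turned with the scaling, with 4.81% gained and 1.36% lost under TMM and 4.48% and 1.33% under background scaling, while in domains 18.2% and 18.1% were gained. Put the other way, 29.0% of the gained windows and 1.01% of the lost windows lay in domains, against 9.45% of all windows. Over the 10 deciles of H3K9me2 enrichment the share of gained windows climbed at each step, from 0.984% in the lowest to 12.9% in the highest, and the share of lost windows fell at each step, from 8.80% to 0.301%.

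**Figure D5:**
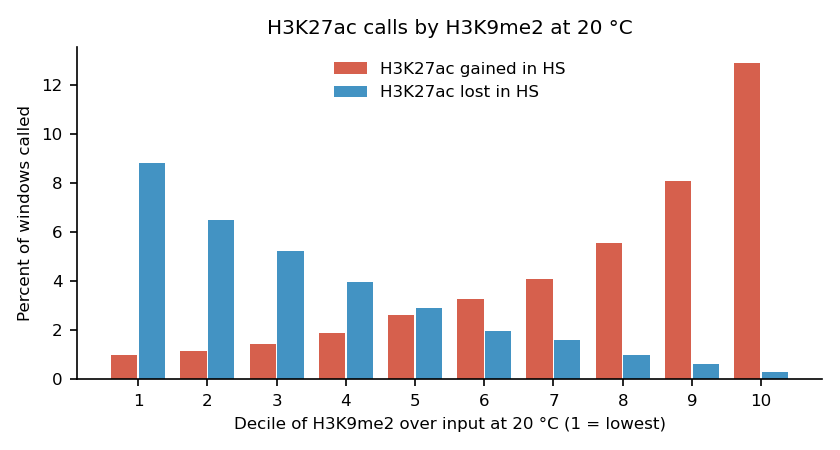
Percent of windows that gained (red) or lost (blue) H3K27ac in HS, by decile of the log2 enrichment of H3K9me2 over input in WT at 20 °C (1 is the lowest). The gained share climbs to 12.9% and the lost share falls to 0.301% across the deciles.

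Domains lie mostly on the arms, but the difference was seen inside each chromosome part. On autosome arms 13.1% of domain windows and 4.42% of other windows were gained, in autosome centers 15.8% and 2.62%, and on X 8.35% and 1.31%. It was also seen at each distance from H3K27ac regions. Inside the mutant-pair regions 21.8% of domain windows and 8.05% of others were gained, in the first 5 windows outside 29.8% and 8.75%, and farther away 8.07% and 1.51%. Domain windows beside an existing H3K27ac region were thus, of these 6 classes, the one with the highest share of gains, 983 of 3295 windows. Among the gained regions 332 (29.5%) held a domain window, against 16.8% of all regions and 0 of the 29 lost regions.

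For single libraries, the IP reads per domain window were set against those of other windows, both more than 5 windows from any mutant-pair region. The ratio was 1.08, 1.36 and 1.04 in HS, against 0.874, 0.934 and 0.923 in WT. In WT all 3 libraries had less H3K27ac signal in domains than elsewhere and in HS all 3 had more, with HS replicate 2 far above the other HS replicates (exact permutation p = 0.1). The difference of the means was 0.25 with all libraries and 0.15 without HS replicate 2. In input the ratio was 0.970 ± 0.013 in HS and 0.961 ± 0.018 in WT (SD, n = 3 each, exact permutation p = 0.6). Without HS replicate 2, 6.98% of domain windows and 2.21% of other windows were gained. The H3K9me2 replicates at 20 °C differed, with 30918 and 10068 windows in domains when each was used alone. Their inputs differed too, with 9928436 reads, 32.8% of them mitochondrial, in replicate 1 and 89301222 reads, 4.44% mitochondrial, in replicate 2. Mitochondrial reads counted in the totals that scaled the enrichment, and their part in the number of domain windows was not tested. In the domains of replicate 1 and of replicate 2 alone, 11.3% and 13.9% of the windows were gained, against 2.87% and 3.67% outside.

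The regions gained in HS were also measured in the met-2 mutants. Both mutants and HS were compared with the same WT libraries, so only the values of each comparison are given. Over the 1124 gained regions the median log2FC of met-2Δ was -0.10, and that of met-2-CD was 0.05, against -0.18 and 0.003 over all regions. Single regions differed more, with log2FC of up to 1.70 for met-2Δ and up to 1.24 for met-2-CD among the gained regions. The largest gain, on chromosome III, held 1182, 1184 and 1172 scaled reads in met-2Δ and 1181, 1168 and 1027 in met-2-CD, close to the WT level given above.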

How the data were processed

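Chromatin immunoprecipitation with an H3K27ac antibody, and input, were sequenced as paired ends, per the labels. Alignment by the authors was to ce10 with unique hits only, and they deposited raw counts per 500-bp window, without normalization and with both mates counted. All other steps started from these counts. Nuclear windows that averaged 10 or more scaled input reads were tested with edgeR 4.0.16 (quasi-likelihood, R 4.3.3) on the 12 H3K27ac IP libraries with library totals as sizes, and p-values were adjusted by Benjamini-Hochberg to 0.01. Values per library were compared by two-sided exact permutation tests, 3 against 3. DESeq2 1.42.0, other scalings, filters, region definitions and left-out libraries were tried as alternatives. The code was tested on simulated data.

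Named regions were called regions without overlap between HS and WT replicates: the 6 gained and the 6 lost with the lowest p, the first of each direction on every chromosome, and the first 3 gained without a WT-enriched window, with the 2 longest runs in each direction and the neighbors of the first 3 gains. The comparison, regions and classes were chosen with earlier results of these data known. Gene lists were not used here, because no annotation of ce10 was at hand. The labels' extraction protocol gives 3 replicates, as in the files, while their growth protocol names fewer. Counting error covers only part of the spread, since reads were amplified by PCR.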

Additional observations from a re-analysis of the deposited data

Results flagged for a closer look

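The mitochondrial genome was not among the windows tested above, but its reads counted in the library totals used for scaling. These reads took a larger share of the input in HS. They made up 4.67%, 2.43% and 2.94% of the input reads in HS, against 2.40%, 1.48% and 1.80% in WT. The means were 3.35% ± 1.17 in HS and 1.89% ± 0.465 in WT (SD, n = 3 each), and the lowest HS library was just above the highest WT library (two-sided exact permutation p = 0.1, the smallest possible). In the IP libraries the share was 0.692%, 0.174% and 0.682% in HS and 0.781%, 0.651% and 1.16% in WT, with overlap between the groups. With the totals of the nuclear windows as library sizes, 8176 windows were gained and 6518 lost, and 1137 regions were gained and 30 lost.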

How the results depend on the processing

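The named regions kept direction and call in 265 of 270 recomputed values, and the other 5, all losses, kept their direction. They had been chosen for a low p and for separation of the same libraries, so this tally is not independent of their choice. Counts moved more. Relative to input, 3705 windows were called (2652 gained, 1053 lost) and 733 regions (716 gained, 17 lost). At an adjusted p below 0.05 there were 36421 windows (14447 gained, 21974 lost) and 1857 regions (1775 gained, 82 lost). With DESeq2's own size factors, 13326 windows were gained and 3357 lost, and 1928 regions were called, 918 of them lost. TMM gave 2443 lost windows and 844 lost regions, and background scaling 2391 and 7. With only HS and WT libraries, 2982 windows were lost and 2013 regions called (1945 gained, 68 lost). Regions at an enrichment of at least 0.5 gave 1961 calls (1783 gained, 178 lost), at 1.5 they gave 546 (540 gained, 6 lost), and those of the mutant pairs 513 (501 gained, 12 lost). At an enrichment of 0.5 the HS minus WT difference in runs per replicate was -597.3 (exact permutation p = 0.5), against 597.7 at 1 (exact permutation p = 0.3). The cause of these shifts was not tested.

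Leaving out 1 library gave 6932 to 18375 called windows (5040 to 9787 gained, 1710 to 8588 lost) and 553 to 1845 called regions (534 to 1777 gained, 12 to 68 lost). The upper ends come from leaving out met-2-CD replicate 3, an alternative chosen after seeing the data, as were the class shares in other fits and the domains of single replicates. HS and WT libraries of the same replicate number showed little shared deviation (r of deviations over regions -0.0594, 0.0443 and -0.0249). Whether they were processed together cannot be told from these values. With the replicate block, 13682 windows and 848 regions were called, 831 gained and 17 lost. With 3 libraries per group, the exact test cannot go below 0.1.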
